A study of Homo sapiens with 2 samples.

Results

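The unfolded protein response was described here by 36 genes, fixed by name, on microarrays of KYSE150, an established cell line derived from esophageal squamous carcinoma. These genes were chosen with earlier results of these data known. The members are chaperones and folding enzymes of the endoplasmic reticulum (ER), genes of ER-associated degradation, translocon subunits, stress sensors with their transcription factors, and genes of the ATF4 arm. The knockdown cells carried a lentiviral short hairpin that targets lncRNA625, a long non-coding RNA, and the control cells (shscramble) received virus with a scrambled hairpin, both as stable lines in RPMI-1640 with fetal bovine serum. The study's methods describe puromycin selection and a screen of clones for the knockdown, and whether the array was made from 1 clone is unknown. With 1 Human Transcriptome Array 2.0 per group, or 2 arrays in total, there was neither a replicate error nor a test, and every difference below compares these arrays and not the conditions. Of the 36 members, 35 had a row of the array with exactly 1 gene symbol, among 22465 genes with such a row. HSP90B1 lay only in a row shared with another gene, and no value was taken for it. A signal limit, the median of all single-gene rows, was set at 4.97 on the deposited log2 scale and was reached by 34 members and by 11323 genes in all. DERL3, a derlin of the ER membrane, stayed below it at 3.53 on both arrays, while PPP1R15A was the member just above it at 5.06 on both.

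In the unfolded protein response, 3 sensors of the ER membrane report an excess of unfolded protein in the ER lumen. ERN1 (IRE1) splices the mRNA of XBP1, ATF6 is cut in the Golgi to free a transcription factor, and EIF2AK3 (PERK) phosphorylates the translation factor eIF2, which lowers protein synthesis overall while raising translation of ATF4. XBP1 and ATF6 are known to raise chaperones and degradation genes, whereas ATF4 raises genes of amino acid supply, redox balance and cell death. ATF4 is also reached through other eIF2 kinases that sense amino acid shortage, heme shortage or double-stranded RNA, a branch called the integrated stress response.

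The promoters of several members carry the elements through which these factors are known to act, and 6 are printed because they belong to the chaperone HSPA5, to the members with the strongest differences that hold an element, and to ASNS, a textbook target of ATF4. The sequences are from RefSeq (GRCh38.p14), run from 250 bases before to 50 bases after the annotated start, and are given 5′ to 3′ on the strand of the gene. Capitals mark a match to the ER stress response element (ERSE, CCAAT and CCACG with 9 bases between them), to ERSE-II (ATTGG and CCACG with 1 base between them) or to the C/EBP-ATF response element (TGATGNAA), on either strand.
HSPA5 (chr9:125241294-125241593, minus strand): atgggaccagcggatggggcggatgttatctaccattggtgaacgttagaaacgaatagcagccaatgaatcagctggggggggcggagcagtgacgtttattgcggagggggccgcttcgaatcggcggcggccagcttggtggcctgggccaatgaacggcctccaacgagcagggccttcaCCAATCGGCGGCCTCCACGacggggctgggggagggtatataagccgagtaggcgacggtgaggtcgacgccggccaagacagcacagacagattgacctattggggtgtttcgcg
XBP1 (chr22:28800520-28800819, minus strand): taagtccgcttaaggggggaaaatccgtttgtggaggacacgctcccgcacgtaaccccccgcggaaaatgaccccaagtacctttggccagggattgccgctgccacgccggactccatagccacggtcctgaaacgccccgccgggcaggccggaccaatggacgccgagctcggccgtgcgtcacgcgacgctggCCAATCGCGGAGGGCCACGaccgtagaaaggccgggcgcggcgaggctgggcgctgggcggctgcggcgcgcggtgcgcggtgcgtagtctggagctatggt
HERPUD1 (chr16:56931892-56932191, plus strand): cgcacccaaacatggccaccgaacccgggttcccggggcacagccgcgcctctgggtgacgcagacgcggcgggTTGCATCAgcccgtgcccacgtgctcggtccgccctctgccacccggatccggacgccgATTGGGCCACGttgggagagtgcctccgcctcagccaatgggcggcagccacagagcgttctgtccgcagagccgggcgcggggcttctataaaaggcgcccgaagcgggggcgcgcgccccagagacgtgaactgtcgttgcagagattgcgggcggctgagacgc
CHAC1 (chr15:40953221-40953520, plus strand): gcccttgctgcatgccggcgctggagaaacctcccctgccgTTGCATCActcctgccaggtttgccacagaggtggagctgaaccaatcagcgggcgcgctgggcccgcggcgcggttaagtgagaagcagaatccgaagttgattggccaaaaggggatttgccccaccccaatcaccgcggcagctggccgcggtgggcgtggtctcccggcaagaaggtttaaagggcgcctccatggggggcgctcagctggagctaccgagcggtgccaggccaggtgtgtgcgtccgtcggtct
PPP1R15B (chr1:204411768-204412067, minus strand): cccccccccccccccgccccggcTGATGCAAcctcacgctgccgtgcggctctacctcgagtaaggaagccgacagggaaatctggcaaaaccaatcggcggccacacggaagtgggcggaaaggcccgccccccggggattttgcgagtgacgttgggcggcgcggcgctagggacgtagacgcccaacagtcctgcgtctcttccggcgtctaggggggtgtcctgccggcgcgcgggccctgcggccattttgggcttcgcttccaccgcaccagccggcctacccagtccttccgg
ASNS (chr7:97872359-97872658, minus strand): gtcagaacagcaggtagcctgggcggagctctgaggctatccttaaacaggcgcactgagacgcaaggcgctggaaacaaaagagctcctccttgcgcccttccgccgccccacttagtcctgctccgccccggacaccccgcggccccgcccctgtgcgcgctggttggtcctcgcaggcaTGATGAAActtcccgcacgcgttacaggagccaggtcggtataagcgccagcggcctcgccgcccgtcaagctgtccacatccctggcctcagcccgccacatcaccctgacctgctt

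The exact ERSE match lay 66 to 48 bases before the start of HSPA5 and 52 to 34 bases before that of XBP1. HERPUD1 held an ERSE-II 117 to 107 bases and a C/EBP-ATF element 176 to 169 bases before its start. The C/EBP-ATF element lay 209 to 202 bases before the start of CHAC1, 227 to 220 before that of PPP1R15B and 68 to 61 before that of ASNS. At least 1 promoter window was at hand for 33 of the 36 members, and all starts of a gene were searched. An ERSE was found in 7 members, HSPA5, HSP90B1, CALR, CANX, PDIA6, CRELD2 and XBP1, against 0.0916% of 27305 genes with a window. An ERSE-II was found in 3 members, HYOU1, SDF2L1 and HERPUD1, against 0.0696% of genes. The core of the unfolded protein response element (UPRE, TGACGTGG) was found in HYOU1 only among the members, where it shared 5 bases with an ERSE-II, and in 0.927% of genes. The C/EBP-ATF element was found in 4 members, HERPUD1, CREB3L2, CHAC1 and PPP1R15B, and in 4.46% of genes. Such a match describes the letters of the window and is not a measured site. Only exact matches were counted, so elements that differ by a letter were missed.

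No member differed by more than 1.5-fold between the arrays, which is 0.585 on the log2 scale. This is the limit of the study's results, and its array methods give a limit of 2-fold, which no member passed either. The counts of 0 higher and 0 lower members stand beside the 1.11% of all genes past the signal limit that exceeded 1.5-fold with the knockdown array higher and the 0.477% that did so with it lower. Over any size of difference, 6 of the 34 members were higher on the knockdown array and 6 were lower, or 17.6% in each direction, beside 11.8% of all genes higher and 12.1% lower. The remaining 22 members, 64.7%, had exactly equal values on both arrays, as had 76.0% of all genes past the limit. With a difference of more than 0.1 asked for, 4 members were higher and 2 were lower, beside 6.76% and 6.62% of all genes. The members' median difference was 0 and their mean 0.013, and over all genes the median was 0 and the mean 0.005. As many members were higher as were lower.

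**Figure D1:**
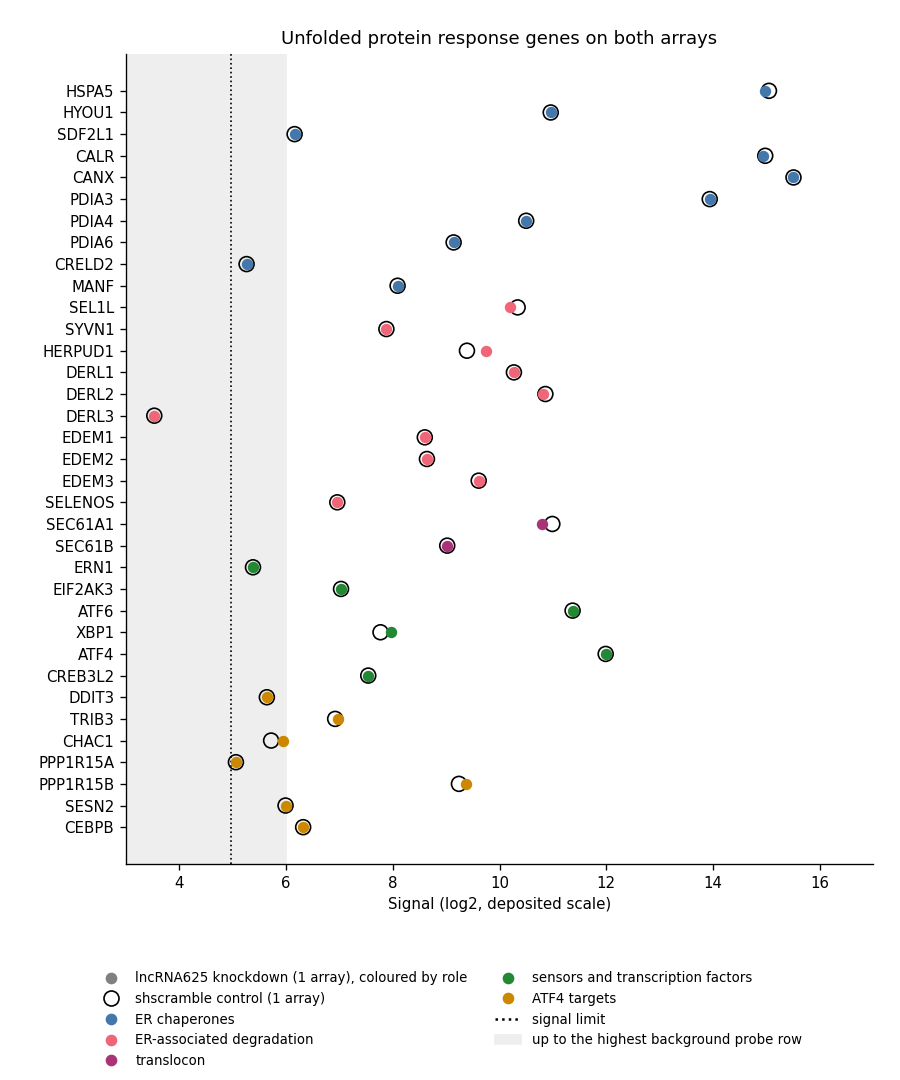
Signal of the 35 members with a row of their own (log2, deposited scale, horizontal axis) on the knockdown array (filled points, coloured by role) and on the control array (open circles), with the signal limit of 4.97 as a dotted line and the levels up to 6.003, the highest background probe row, shaded. The points lie within the circles for most genes, while HERPUD1, XBP1 and CHAC1 lie to the right of theirs and SEL1L and SEC61A1 to the left.

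Equal values were common at every signal, and over all genes they became fewer as the signal grew. Among members with a mean signal below 7, 7 of 10 were equal, beside 88.5% of all genes in that range. The counts were 9 of 12 members beside 74.8% of genes at 7 to 10, 4 of 8 beside 58.1% at 10 to 12, and 2 of 4 beside 44.9% at 12 and above. An exact difference of 0 is therefore frequent on the deposited scale and cannot be read as a measured equality. Among genes that were not equal, the median absolute difference was 0.12 and the 90th percentile 0.47, and the differences of the members given below lie within that range.

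Of 10 ER chaperones and folding enzymes with a value, 0 were higher on the knockdown array, 2 were lower and 8 were equal. Over all genes 76.0% were equal. By mean signal, 2 of 2 were equal below 7, 2 of 2 at 7 to 10, 2 of 2 at 10 to 12 and 2 of 4 above. The equal shares of all genes in these ranges were 88.5%, 74.8%, 58.1% and 44.9%. The chaperones' mean difference was -0.011, which turned to 0.009 with a second quantile normalization. That normalization moved the 8 equal genes to both sides of 0, from -0.027 for PDIA6 to 0.039 for PDIA3. The count of 0 higher chaperones thus depends on the scaling. HSPA5 (BiP), the HSP70 chaperone of the ER lumen and the usual readout of ER stress, was at 14.98 on the knockdown array and 15.05 on the control array, a difference of -0.069. CALR, the lectin chaperone calreticulin, was at 14.94 on the knockdown array and 14.98 on the control array, a difference of -0.046. With that second normalization both signs turned, to 0.020 each, so neither gene has a settled direction. Both differences were also small beside those of other genes, since 7.95% of all genes past the limit were lower by at least as much as HSPA5 and 9.2% by at least as much as CALR. CANX, the membrane-bound partner of CALR, was at 15.51 on both arrays, and HYOU1, which exchanges the nucleotide of HSPA5, was at 10.96 on both. The protein disulfide isomerases PDIA3, PDIA4 and PDIA6 were at 13.94, 10.50 and 9.14 on both arrays. MANF, a secreted protein that binds HSPA5, was at 8.09 on both, and SDF2L1, which acts with ER HSP40 proteins, at 6.16 on both. CRELD2, a disulfide isomerase-like protein, was at 5.26 on both arrays, no brighter than the brightest of 23 background probe rows (6.003). The 9 members past the limit with an ERSE or an ERSE-II in a promoter window comprised 2 higher, 2 lower and 5 equal genes. Over all genes the shares were 11.8%, 12.1% and 76.0%. The 2 higher members, HERPUD1 and XBP1, were not chaperones.

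HERPUD1, a membrane protein that organises the degradation complex around the ligase SYVN1, had the strongest difference of all members. It was at 9.75 on the knockdown array and 9.39 on the control array, a difference of 0.36 or 1.28-fold on the deposited scale. Among all genes past the limit, 2.1% were higher by at least as much. No other degradation gene among the members was higher. SEL1L, the adaptor of SYVN1, was at 10.19 on the knockdown array and 10.34 on the control array, a difference of -0.15. DERL2, a derlin through which substrates leave the ER, was at 10.81 on the knockdown array and 10.86 on the control array, a difference of -0.046. The ligase SYVN1 (HRD1) itself was at 7.88 on both arrays, and DERL1 at 10.27 on both. EDEM1, EDEM2 and EDEM3, which mark glycoproteins for degradation by trimming mannose, were at 8.60, 8.64 and 9.61 on both arrays. VIMP (SELENOS), a selenoprotein that recruits the VCP ATPase, was at 6.96 on both. Together, 1 of 9 degradation genes past the limit was higher, 2 were lower and 6 were equal, beside 11.8%, 12.1% and 76.0% of all genes. Their median was 0 and their mean 0.018. HERPUD1 and SEL1L, which act in the same complex, thus differed in opposite directions on these arrays, under each rescaling tried as well.

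Of the translocon, through which new secretory proteins enter the ER, SEC61A1, the pore subunit, had the lowest difference of all members. It was at 10.80 on the knockdown array and 10.99 on the control array, a difference of -0.20, and 4.03% of all genes past the limit were lower by at least as much. SEC61B, the small beta subunit, was at 9.02 on both arrays.

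The stress sensors were equal on both arrays. ERN1 was at 5.38 on both, within the range of background probe rows, EIF2AK3 at 7.03 and ATF6 at 11.37. XBP1, whose mRNA ERN1 splices, was at 7.97 on the knockdown array and 7.77 on the control array, a difference of 0.20, and 4.23% of all genes past the limit were higher by at least as much. The array row does not tell the spliced from the unspliced form of XBP1. ATF4 was at 11.99 on both arrays and differed by 0.001, or by -0.009 after median centring, so it has no direction either, and its main control acts on translation, which an array does not measure. CREB3L2, an ER-bound transcription factor of secretory cells, was at 7.54 on both.

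Among ATF4 targets and the cofactors of the eIF2 phosphatase, 3 of 7 members were higher, 1 was lower and 3 were equal. Over all genes the shares were 11.8%, 12.1% and 76.0%. These 7 members had a median of 0 and a mean of 0.054. CHAC1, a glutathione-degrading enzyme that is a sensitive target of ATF4, was at 5.94 on the knockdown array and 5.72 on the control array, a difference of 0.21. Both values lie in the range of background probe rows, which leaves the size of this difference uncertain. PPP1R15B (CReP), the constitutive cofactor of the eIF2 phosphatase, was at 9.37 on the knockdown array and 9.24 on the control array, a difference of 0.12. TRIB3, a pseudokinase that restrains ATF4, was at 6.98 on the knockdown array and 6.92 on the control array, a difference of 0.057. CEBPB, a transcription factor that can pair with ATF4, was at 6.31 on the knockdown array and 6.32 on the control array, a difference of -0.010. The death-linked factor DDIT3 (CHOP), the stress-induced phosphatase cofactor PPP1R15A (GADD34) and SESN2, an inhibitor of mTORC1, were equal at 5.64, 5.06 and 5.99. These 3 genes also lie in the range of background probe rows.

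**Figure D2:**
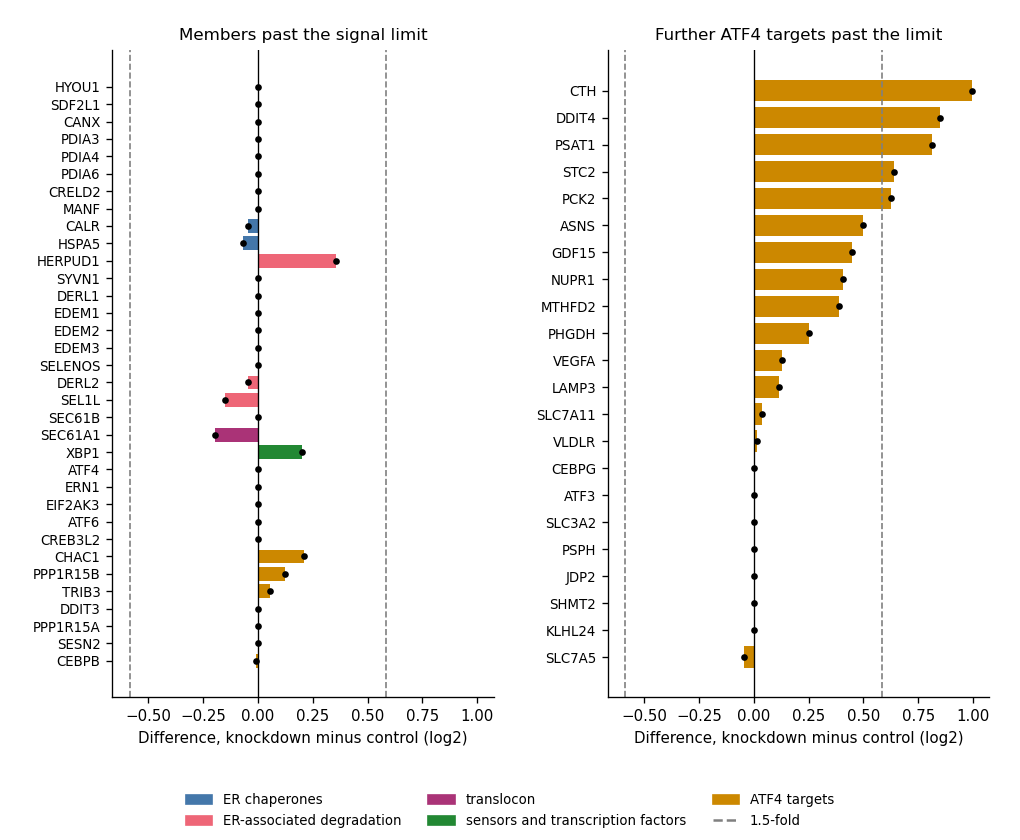
Difference between the arrays (knockdown minus control, log2, horizontal axis) of the 34 members past the signal limit, coloured by role (left), and of the 22 further ATF4 targets past the limit (right), with dashed lines at 1.5-fold and 1 array per group. No member reaches the dashed lines, while CTH, DDIT4, PSAT1, STC2 and PCK2 pass the upper one.

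Set side by side, the mean difference was -0.011 for ER chaperones, 0.018 for degradation genes and 0.054 for the ATF4 targets among the members, and the 3 medians were 0. With 1 array per group neither these means nor their order could be tested. With the signal limit at the 75th percentile (7.6), PPP1R15B alone of these ATF4 targets remained. The mean and median of 0.122 found there are the difference of that gene and do not describe the group.

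A wider list of 26 ATF4 targets outside the members differed in mostly 1 direction. Of 22 past the limit, 14 were higher on the knockdown array (63.6%, beside 11.8% of all genes), 1 was lower and 7 were equal. By more than 1.5-fold, 5 were higher and 0 were lower, beside 1.11% and 0.477% of all genes. The median of this list was 0.12 and the mean 0.28, beside 0 and 0.005 over all genes. The median became 0.078 with no signal limit and 0.020 with the limit at the 75th percentile, where the means were 0.257 and 0.295. The list was put together with earlier results of these data known, ASNS and DDIT4 among them, so its counts are a description.

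Among the 14 higher genes, 6 were enzymes of amino acid and one-carbon metabolism, with PCK2 counted among them, a grouping made after the values were seen. Of 8 such enzymes past the limit, 6 were higher, 2 were equal and 0 were lower, beside 11.8%, 76.0% and 12.1% of all genes. Their median was 0.44, beside 0 over all genes. CTH, which makes cysteine from cystathionine, was at 9.76 on the knockdown array and 8.76 on the control array, a difference of 0.995 or 1.99-fold on the deposited scale. PSAT1, the aminotransferase of serine synthesis, was at 15.54 on the knockdown array and 14.73 on the control array, a difference of 0.81. PCK2, the mitochondrial phosphoenolpyruvate carboxykinase, was at 6.65 on the knockdown array and 6.03 on the control array, a difference of 0.62. All 3 passed the 1.5-fold limit, and the control value of PCK2 lay just above the background probe rows. ASNS, which makes asparagine, was at 10.52 on the knockdown array and 10.02 on the control array, a difference of 0.50. MTHFD2, a mitochondrial folate enzyme, was at 13.05 on the knockdown array and 12.66 on the control array, a difference of 0.39. PHGDH, which opens serine synthesis, was at 7.15 on the knockdown array and 6.90 on the control array, a difference of 0.25. The other serine and glycine enzymes, PSPH and SHMT2, were listed at 11.56 and 10.36 on both arrays.

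Of the remaining 14 genes of the wider list past the limit, 8 were higher, 1 was lower and 5 were equal. Over all genes the shares were 11.8%, 12.1% and 76.0%, and the median of the 14 was 0.026. DDIT4, an inhibitor of mTORC1 that is also a target of hypoxia, was at 12.22 on the knockdown array and 11.37 on the control array, a difference of 0.85. STC2, a secreted glycoprotein, was at 7.62 on the knockdown array and 6.98 on the control array, a difference of 0.64. NUPR1, a small stress-induced nuclear protein, differed by 0.41, with 6.71 on the knockdown array and 6.30 on the control array. GDF15, a stress-induced cytokine, was at 5.90 on the knockdown array and 5.46 on the control array, in the range of background probe rows, and differed by 0.45. The amino acid transporters SLC7A11, SLC7A5 and SLC3A2 differed by 0.039, -0.043 and 0. ATF3, a transcription factor induced by ATF4, was at 8.07 on both arrays. DDIT4, STC2 and VEGFA are also known to respond to hypoxia, and ERO1A, a disulfide oxidase of the ER that hypoxia is known to induce, was higher by 0.83. Without DDIT4, STC2 and VEGFA, 11 of 19 genes of the wider list were higher, 3 past the 1.5-fold limit, and over the 19 the median was 0.039 and the mean 0.24. The part of hypoxia genes in these differences was not tested.

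Over the members and the wider list together, 9 genes held the C/EBP-ATF element in a promoter window, and 4 of them were higher, 5 were equal and 0 were lower, beside 11.8%, 76.0% and 12.1% of all genes. The higher ones were HERPUD1, CHAC1, PPP1R15B and ASNS, whose promoters are printed above, and the equal ones were CREB3L2, ATF3, SLC3A2, CEBPG and JDP2. CTH, PSAT1, PCK2, DDIT4 and STC2, the genes of the wider list past 1.5-fold, each had a window and held no match to this element in it, and a window was at hand for 19 of the 26 genes of that list.

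**Figure D3:**
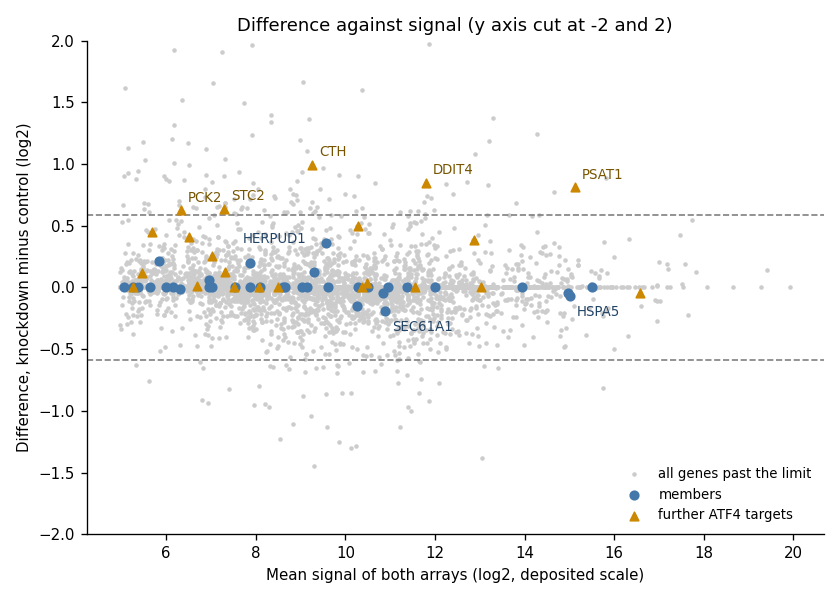
Difference between the arrays (knockdown minus control, log2, vertical axis) against the mean signal of both arrays (log2, horizontal axis) for all 11323 genes past the limit (grey), the members (blue circles) and the further ATF4 targets (orange triangles), with dashed lines at 1.5-fold. The members lie on or near 0 at every signal, from -0.20 for SEC61A1 to 0.36 for HERPUD1, and 4 genes lie outside the vertical axis.

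Of 27 further folding and redox enzymes past the limit, 5 (18.5%) were higher on the knockdown array, 2 (7.41%) were lower and 20 were equal, beside 11.8% of all genes higher and 12.1% lower. ERO1A was at 13.60 on the knockdown array and 12.77 on the control array and was the only gene of this list past 1.5-fold. The proline isomerase FKBP2 was at 9.52 on the knockdown array and 9.17 on the control array, a difference of 0.35. The thioredoxin-like TXNDC12 was at 13.00 on the knockdown array and 12.72 on the control array, a difference of 0.28. Of 21 further degradation genes, 5 (23.8%) were higher, 2 (9.52%) were lower and 14 were equal, with differences no larger than 0.18, that of the ligase MARCHF6. The lectin OS9, which hands glycoproteins to SEL1L, differed by 0.094 and the VCP cofactor UFD1 by -0.089. Of 6 further sensors and ER-bound factors past the limit, ATF6B, a relative of ATF6, was higher by 0.21 and 5 were equal. Of 5 ER-phagy receptors past the limit, RTN3 was higher by 0.15 and 4 were equal, 3 of the list lying in the range of background probe rows. Each list of this paragraph stands beside 11.8% of all genes higher, 12.1% lower and 76.0% equal.

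Of 14 genes of eIF2 kinases, eIF2, eIF2B and the catalytic subunits of the phosphatase, 3 were higher on the knockdown array, 5 were lower and 6 were equal, beside 11.8%, 12.1% and 76.0% of all genes, with a median of 0 and a mean of -0.10. EIF2B2, a regulatory subunit of eIF2B, the factor that phosphorylated eIF2 blocks, was at 10.97 on the knockdown array and 11.97 on the control array, a difference of -1.001. It was the only gene of this list past 1.5-fold, beside 0.477% of all genes lower by more than 1.5-fold. Among all genes past the limit, 0.0971% were lower by at least as much as EIF2B2. The mean of the list rests mostly on EIF2B2 and EIF2S1. EIF2S1, the alpha subunit of eIF2 that the kinases phosphorylate, was at 11.35 on the knockdown array and 11.89 on the control array, a difference of -0.54. EIF2S3, the gamma subunit, differed by 0.18 in the other direction, with 14.85 on the knockdown array and 14.67 on the control array. Of the kinases, EIF2AK1 and EIF2AK2 were equal at 12.51 and 13.65, and EIF2AK4, which senses uncharged tRNA, differed by -0.10.

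Of 25 genes of translocation and N-glycosylation, which act where proteins enter the ER, 3 (12%) were higher, 4 (16%) were lower and 18 were equal. This list was led by SSR3 with -0.15, the signal peptidase subunit SPCS3 with -0.14 and SRPRA, a subunit of the signal recognition particle receptor, with 0.11. Of 19 genes of transport between ER and Golgi, 3 (15.8%) were higher, 4 (21.1%) were lower and 12 were equal. Both lists stand beside 11.8% of all genes higher, 12.1% lower and 76.0% equal. SEC24A, a cargo adaptor of COPII vesicles, was at 9.77 on the knockdown array and 10.38 on the control array, a difference of -0.61, and was the only gene of this list past 1.5-fold. Its relative SEC24C differed by -0.29, and TMED2 by -0.13.

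**Figure D4:**
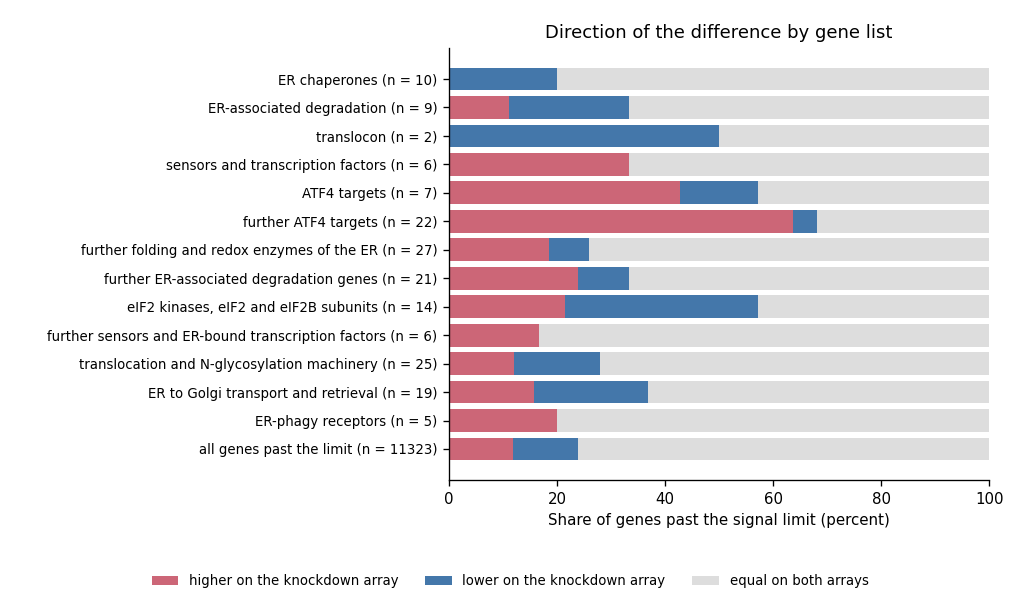
Share of genes past the signal limit (percent, horizontal axis) that were higher (red), lower (blue) or equal (grey) on the knockdown array against the control array, for the 5 roles of the members, the 8 further lists and all genes past the limit, with the number of genes in brackets. On the deposited scale the further ATF4 targets hold 63.6% higher genes, against 11.8% of all genes, and the ER chaperones hold 0. All lists were chosen with earlier results of these data known, and the 0 of the chaperones depends on the scaling.

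Values of the whole series bear on these results only in part. The signal of lncRNA625 itself was not analysed here, which leaves the knockdown label unchecked. Of squamous epithelium markers, KRT5 was at 16.11 on the knockdown array and 16.50 on the control array, DSG3 at 11.25 on the knockdown array and 11.51 on the control array, and PKP1 at 7.86 on both, while KRT14 at 5.63 lay within the range of background probe rows and KRT6A and TP63 were not analysed here. Of markers for fibroblasts, endothelium, leukocytes and columnar epithelium, 11 had a usable row, and each of the 11 lay below the signal limit, from 3.50 to 4.68, with the same value on both arrays.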

How the data were processed

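Total RNA of the 2 stable lines was measured on the Affymetrix Human Transcriptome Array 2.0, with targets that the study's methods describe as biotinylated cRNA. The methods describe a lentiviral hairpin where a sample label names siRNA, and the RNA kits named in labels and methods differ. The values deposited by the authors are log2 signals, for which the labels name RMA without a version. The highest is 19.93, although a 16-bit scanner allows at most 16 after log2, so folds hold for the deposited scale alone.

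Of 70523 rows, 23781 have exactly 1 gene symbol, and 21497 of these were updated by gene ID to RefSeq (GRCh38.p14). For each gene the brightest row, averaged over both arrays, was taken. Each member had at most 1 such row. Differences are knockdown minus control. No test was made with 1 array per group, whose number sets the precision. The members and lists were chosen with earlier results of these data known. All members are named, and of each further list the 3 genes with the strongest differences and all past 1.5-fold, while others were named after their values were seen. The procedure was tested on simulated data, a noise-free copy of the control array with 11325 genes past the limit, in which the steps found 100 of 100 genes raised by 1 on the log2 scale and 100 of 100 lowered by 1. With no noise added, this checks the steps alone and not whether differences as small as those of the members can be found. Tried as alternatives were a second quantile normalization, median centring, a loess trend removed (span 0.3), averaging all rows of a gene, other signal limits and other fold limits. Python 3.11.15, pandas 2.3.3, NumPy 2.4.6, statsmodels 0.14.6 and matplotlib 3.10.9 were used.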

Additional observations from a re-analysis of the deposited data

Results flagged for a closer look

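Rows that several genes share were not used above. Of 18 such rows with a gene of these lists among their symbols, 10 were higher on the knockdown array, 1 was lower and 7 were equal, with differences from -0.011 to 0.20. Of the 10 higher rows, 9 belong to alternative MHC haplotypes and stand for 2 genes of the lists, ATF6B and RNF5. No row passed 1.5-fold.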

How the results depend on the processing

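No member passed 1.5-fold, or 2-fold, under any alternative run. Since most members were equal on both arrays, any rescaling turns those values into small differences, and the counts of direction moved. The members higher numbered 15 with a second quantile normalization and 11 with the loess trend removed, against 6 as deposited. The members lower numbered 29 with median centring, 19 with a second quantile normalization and 23 with the loess trend removed, against 6 as deposited, and 2 with a difference of more than 0.1 asked for. Median centring shifted every difference by 0.0106, and no alternative moved a member's difference by more than 0.089. The signs of HSPA5, CALR (second quantile normalization, 0.020 each) and ATF4 (median centring, -0.009) turned, and those of the other 9 members that differed were kept under the 3 rescalings. With the signal limit at the 75th percentile, the median and the mean of the ATF4 targets among the members were both 0.122, against 0 and 0.054. Only PPP1R15B remained of these targets at that limit, so both values are its difference. The mean of the ER chaperones lay between -0.022 and 0.009 over all alternatives. For the wider list of ATF4 targets, whose alternatives were chosen after seeing the data, 8 were lower with median centring, 5 with a second quantile normalization and 6 with the loess trend removed, against 1 as deposited. With a signal limit at the 75th percentile, which leaves fewer genes by its construction, 6 of them were higher, 3 by more than 1.5-fold, and the median was 0.020, or 0.078 with no limit, against 0.123. Without DDIT4, STC2 and VEGFA, 3 were higher by more than 1.5-fold. No paired analysis was possible because each group held 1 array, and for the same reason no array could be left out. Dim signal limits what these arrays can show, since 6 of the 34 members lay no higher than the brightest background probe row.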
